A study of Rattus norvegicus with 8 samples.

Results

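The 38 genes described here are the genes by which blood vessel lining cells are usually recognised, together with the ligands and receptors of angiogenesis, the sprouting of new vessels from existing ones. They were taken by gene symbol from a named list, and probes were matched to them through the RefSeq accession each probe carries. Of the 38, 33 had a matched probe and 31 were bright enough to test, among 19865 genes tested in all. Ptprb, Robo4, Ets1, Egfl7 and Dll4 had no match and are not analysed here. Edn1 and Nrp2 were too dim and are given without a test.

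The kidney is rich in endothelium, in the fenestrated capillaries of the glomerulus and in the peritubular capillaries around the tubules. VEGF-A from podocytes and tubules acts on Kdr, the main signalling receptor of the family, while Flt1 binds the same ligand and largely acts as a decoy. Angpt1 activates the receptor Tek and keeps vessels quiet, and Angpt2 mostly opposes it. Vegfc and Flt4 serve lymphatic vessels above all.

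Messenger RNA was measured in the right kidney of 8 male F344/NSlc rats aged 10 weeks, 4 that had lost the other kidney (nephrectomized) and 4 that had undergone a sham operation. The series text gives 2 days after surgery. The source labels give day 2 for the nephrectomized rats and day 1 for the sham rats, so operation and time after surgery cannot be told apart should the labels be right. Each rat was hybridised to 1 array of a 1-colour rat design.

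Values are log2 intensities relative to the array's own 75th percentile, so a value of a gene is relative to the other mRNA of that kidney. Between 60.5% and 65.5% of 41012 probes were well above background in nephrectomized rats. In sham rats the share was 54.8% in rat 1 and between 61.1% and 64.6% in the others. No probe was saturated. The arrays lay on 2 slides of 4, each with 2 nephrectomized and 2 sham rats. Sham rat 1 stood apart from the other arrays on the second principal component (21.6% of the variance). Limma with Benjamini-Hochberg adjustment over all 19865 genes called 714 at an adjusted p of 0.05, and the number of arrays, 4 a group, limits the precision of every value. Whole kidneys were measured, so fewer cells of a type and less RNA per cell cannot be told apart.

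The endothelial genes could be read in these arrays, but their detection is no test of the label. All 18 tested markers of the cell type (14 surface proteins and enzymes, 4 transcription factors) were well above background on all 8 arrays. A gene was tested only where every array of either group measured it so, which largely fixes that result in advance. Of the genes listed as markers of endothelium as a cell type, Pecam1, Cdh5, Emcn, Tie1 and Esam were tested. Tie1 is counted here with the receptors. Robo4 and Egfl7 had no matched probe.

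Promoters are printed for 3 members whose unadjusted p lay under 0.05 and for which the RefSeq table (GRCr8) has an entry, a choice made after the values were seen. Of the 38 members, 23 have an entry. Vwf, the only member called, has none. Each window runs from 250 bases before the transcription start to 50 after it, on the gene's strand. Capitals mark the letters CACCC, the core bound by KLF factors, and ACGTG, the core of the hypoxia response element, on either strand, so that they can appear as GGGTG or CACGT. The Vegfb window is chr1:213607103-213607402 (minus strand), the Ehd3 window chr6:27417396-27417695 (minus strand) and the Kdr window chr14:32571813-32572112 (plus strand).
Vegfb: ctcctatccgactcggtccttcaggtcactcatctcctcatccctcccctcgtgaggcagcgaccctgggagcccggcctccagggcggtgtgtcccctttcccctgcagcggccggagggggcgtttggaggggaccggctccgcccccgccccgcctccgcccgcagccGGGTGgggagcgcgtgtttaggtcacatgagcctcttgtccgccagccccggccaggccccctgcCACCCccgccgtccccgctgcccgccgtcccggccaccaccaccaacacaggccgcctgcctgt
Ehd3: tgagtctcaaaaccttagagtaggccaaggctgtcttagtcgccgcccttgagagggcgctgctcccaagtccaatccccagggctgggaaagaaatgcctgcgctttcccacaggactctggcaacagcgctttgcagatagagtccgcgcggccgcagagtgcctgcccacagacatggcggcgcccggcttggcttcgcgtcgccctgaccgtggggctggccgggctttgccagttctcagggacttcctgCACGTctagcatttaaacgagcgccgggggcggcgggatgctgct
Kdr: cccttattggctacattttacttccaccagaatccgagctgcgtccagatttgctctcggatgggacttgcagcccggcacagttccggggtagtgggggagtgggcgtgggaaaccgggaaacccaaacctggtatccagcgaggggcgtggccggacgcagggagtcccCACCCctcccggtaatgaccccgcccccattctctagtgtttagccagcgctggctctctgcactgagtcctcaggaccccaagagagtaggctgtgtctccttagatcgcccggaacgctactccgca

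The Vegfb window had a GC content of 73.7%, against 63.3% for Ehd3 and 61.0% for Kdr. CACCC occurred 2 times in the Vegfb window and 1 time in that of Kdr, and 18 of the 23 member promoters (78.3%) held it, against 55.1% of all 27457 promoters. ACGTG occurred in that of Ehd3, in 3 of the 23 members (13.0%) and in 19.7% of all promoters. The SOX core ACAAT was held by 6 of the 23 members (26.1%), against 33.1% of all promoters. TATAAA was held by 4 of the 23 (17.4%), against 14.3% of all. The ETS core GGAA was in 22 of the 23 (95.7%) and in 95.8% of all promoters, and was not capitalised. These matches describe letters in the windows and no binding was measured.

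After nephrectomy Vwf fell, and no other member of the group was called in either direction. That is 1 of the 31 tested members, while 3.59% of all genes were called (2.57% higher and 1.02% lower), so the members' share was near that of all genes. Log2 fold changes were positive for 16 members and negative for 15, with a median of 0.03, beside -0.0004 over all genes tested. An unadjusted p under 0.05 was reached by 7 members, 3 higher (Vegfb, Sox18 and Kdr) and 4 lower (Vwf, Ehd3, Esam and Pecam1), while 17.7% of all genes reached it (10.1% higher and 7.6% lower). The nephrectomized and sham values did not overlap for 2 members, Vegfb (higher) and Vwf (lower), and for 12.6% of all genes (7.56% higher and 5.07% lower). For 27 of the 31 members (87.1%) the 95% interval of the fold change lay within 1.5-fold either way, as it did for 82.4% of all genes, and the exceptions were Pecam1, Cdh5, Sox18 and Sox7.

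**Figure D1:**
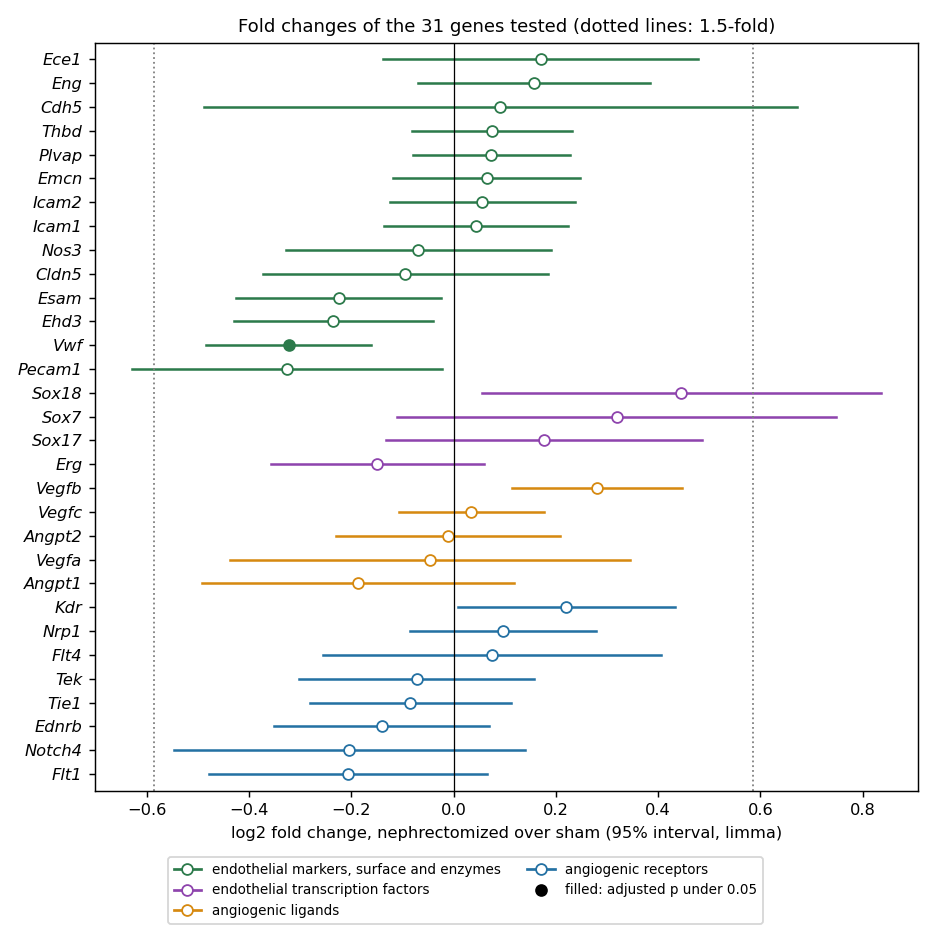
Log2 fold change (nephrectomized over sham) of the 31 tested members with 95% intervals, coloured by role, a filled point for an adjusted p under 0.05 and dotted lines at 1.5-fold. Vwf is the only filled point, and the intervals of 7 members lie on 1 side of 0.

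Among the surface proteins and enzymes of endothelium, Vwf fell after nephrectomy and no other member was called. Vwf encodes von Willebrand factor, the clotting protein that endothelium stores and that platelets carry too. It had a level of 1.29, 1.26, 1.16 and 1.41 in nephrectomized rats 1 to 4, against 1.67, 1.54, 1.65 and 1.55 in sham rats 1 to 4. Every nephrectomized rat lay below every sham rat. The level averaged 1.28 ± 0.10 in nephrectomized rats and 1.60 ± 0.07 in sham rats (SD, n = 4 each), a log2 fold change of -0.32 (SE 0.07), or 0.80-fold (95% interval 0.715 to 0.894). The adjusted p by limma was 0.0467, close to the threshold. The difference was of like size on slide 1 (-0.33) and slide 2 (-0.32). A second probe of Vwf, well above background on only 3 nephrectomized and 2 sham arrays and therefore not tested, averaged -3.87 ± 1.12 in nephrectomized rats and -3.85 ± 0.90 in sham rats (SD, n = 4 each), and the spread at this dim probe exceeds the difference seen at the bright one. With every probe tested as a feature of its own, the limma adjusted p of the bright Vwf probe was 0.0510. The call was lost when any 1 of the 8 rats was left out (limma adjusted p from 0.0591 to 0.144), with slide as a block (0.0600), under quantile normalization (0.0668) and without the filter on dim probes (0.191), while the fold change kept its sign under all 21 alternatives tried.

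Platelet genes were read beside Vwf. Of the 4 listed, Pf4 and Gp9 were tested, Ppbp was too dim and Itga2b had no match. By limma 0 were called and 0 had an unadjusted p under 0.05, with log2 fold changes of -0.17 for Pf4 and 0.01 for Gp9, and their mean level ranged from -2.34 to -1.56 in nephrectomized rats and from -2.01 to -1.58 in sham rats.

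Ehd3, which marks glomerular endothelium, had levels of -1.79, -1.77, -2.01 and -1.83 in nephrectomized rats, against -1.48, -1.65, -1.78 and -1.57 in sham rats. The groups overlapped by sham rat 3 alone, and the log2 fold change was -0.24 (SE 0.09, limma adjusted p = 0.193). Esam, an adhesion protein of endothelial junctions, had levels of 0.80, 0.71, 0.47 and 0.63 in nephrectomized rats, against 0.97, 0.89, 0.91 and 0.73 in sham rats. Sham rat 4 lay within the nephrectomized range, and the log2 fold change was -0.22 (SE 0.09, limma adjusted p = 0.227). Pecam1, the junction protein CD31 and the usual endothelial marker, had levels of -2.54, -2.41, -2.97 and -2.47 in nephrectomized rats, against -2.12, -2.17, -2.41 and -2.38 in sham rats. Nephrectomized rat 3 was the lowest, and the log2 fold change was -0.33 (SE 0.13, limma adjusted p = 0.247), or -0.14 with normexp background correction. None of these 3 genes passed the test.

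The other surface markers sat close to 0 or above it. Emcn, a sialomucin of capillaries and veins, had levels of 1.31, 1.38, 1.45 and 1.31 in nephrectomized rats, against 1.09, 1.36, 1.37 and 1.37 in sham rats. Thbd, the anticoagulant thrombomodulin, had levels of 2.23, 2.18, 2.29 and 2.18 in nephrectomized rats, against 1.99, 2.20, 2.21 and 2.18 in sham rats. In both genes sham rat 1 was low and the remaining 7 rats overlapped. Their log2 fold changes were 0.07 for Emcn (limma adjusted p = 0.736) and 0.08 for Thbd (0.623). Cdh5, the cadherin of endothelial junctions, varied more than any other member among nephrectomized rats, at -2.08, -1.78, -0.88 and -1.82, against -1.96, -1.32, -1.80 and -1.85 in sham rats. Its log2 fold change of 0.09 had an SE of 0.25, and the value was -0.29 on slide 1 and 0.47 on slide 2. Eng (0.16), Plvap (0.07), Icam1 (0.04) and Icam2 (0.06) were also positive and not called, and Cldn5 (-0.09) and Nos3, the endothelial nitric oxide synthase (-0.07), were negative and not called. Ece1, the enzyme that matures endothelin, gave 0.17 at its brighter probe and -0.35 at its second, neither of them called. Over the 14 surface markers the median log2 fold change was 0.05, with 8 positive and 6 negative. An unadjusted p under 0.05 by limma was reached by 4 on the lower side (Vwf, Ehd3, Esam and Pecam1) and 0 on the higher side. Of all genes, 7.6% reached it on the lower side and 10.1% on the higher side.

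**Figure D2:**
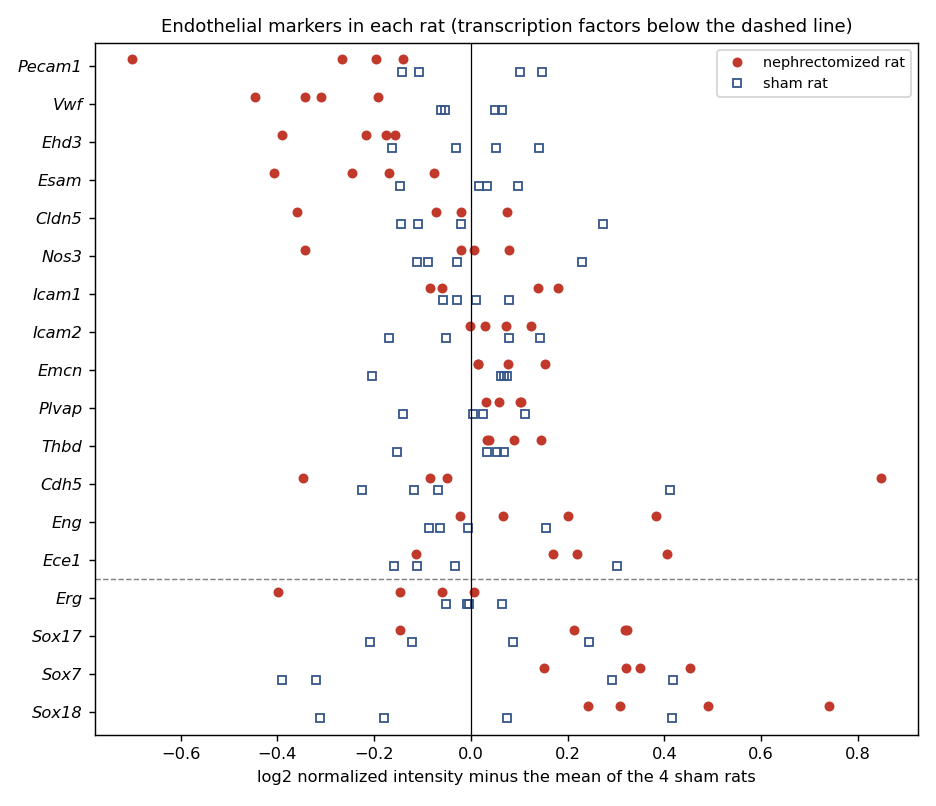
Level of each tested endothelial marker in each rat, as the log2 difference from the gene's mean over the 4 sham rats, with nephrectomized rats as filled circles above the open squares of sham rats. Vwf is the gene whose nephrectomized values are all below its sham values.

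The transcription factors of the SoxF family, which specify vessel identity, had positive log2 fold changes, and none was called. Their values were positive on slide 1 and between -0.12 and 0.03 on slide 2. Sox18 had levels of 1.89, 1.64, 1.39 and 1.46 in nephrectomized rats, against 0.84, 0.97, 1.22 and 1.56 in sham rats. Sham rat 4 was within the nephrectomized range, and the log2 fold change was 0.45 (SE 0.17), or 1.36-fold, with a limma adjusted p of 0.219. Sox7 had levels of -1.88, -1.98, -2.01 and -2.18 in nephrectomized rats, against -2.72, -2.65, -2.04 and -1.92 in sham rats. Sham rats 1 and 2 were lower than the other 6 rats, and the log2 fold change was 0.32 (SE 0.19, limma adjusted p = 0.433). Sox17 had a log2 fold change of 0.18 (limma adjusted p = 0.555).

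On slide 1, which held replicates 1 and 2 of both groups, the log2 fold changes were 0.86 for Sox18, 0.76 for Sox7 and 0.38 for Sox17. On slide 2 they were 0.03 for Sox18, -0.12 for Sox7 and -0.03 for Sox17. The difference between the slides was tested after these values were seen, as an interaction in limma. It was -0.83 for Sox18 (unadjusted p = 0.00604) and -0.88 for Sox7 (unadjusted p = 0.000688), and no gene of the 19865 passed adjustment (adjusted p = 1 for both, 551 genes at an unadjusted p under 0.05). Erg, an ETS factor that keeps endothelium differentiated, had levels of 0.84, 0.91, 0.50 and 0.75 in nephrectomized rats, against 0.96, 0.85, 0.89 and 0.89 in sham rats. Nephrectomized rat 3 was the lowest, and the log2 fold change was -0.15 (SE 0.09, limma adjusted p = 0.449).

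**Figure D3:**
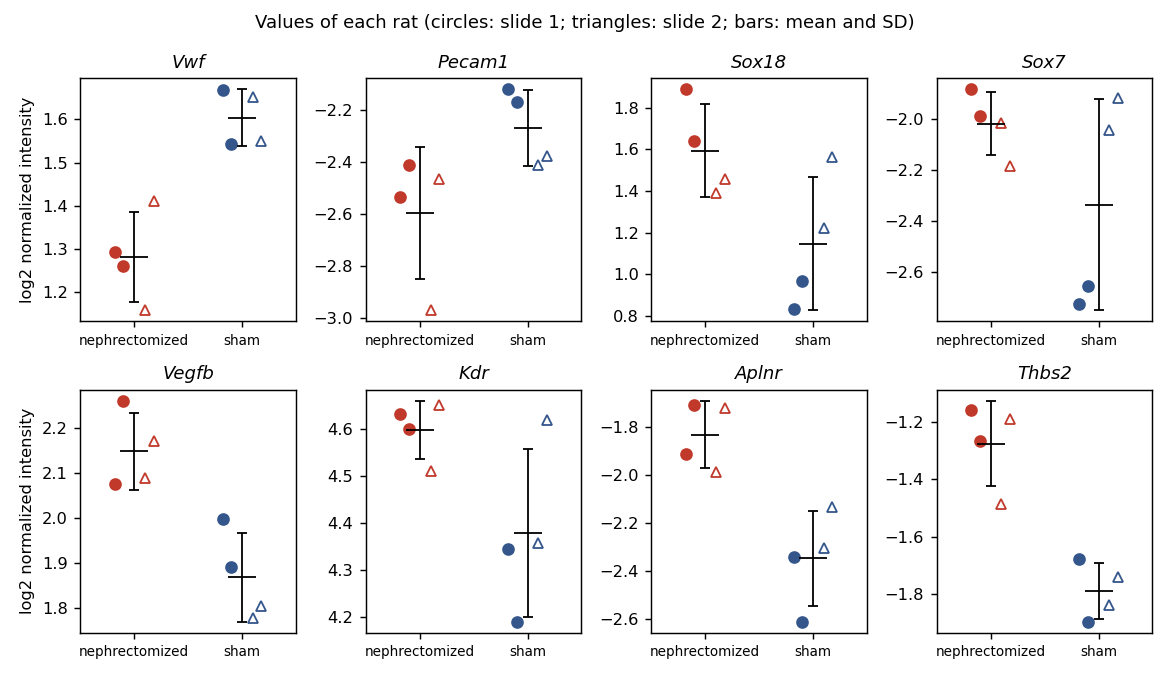
Levels of 8 genes in each rat (log2 normalized intensity), nephrectomized rats left of sham rats, with circles for slide 1, triangles for slide 2 and bars for the group mean and SD. Sox18 and Sox7 separate by group on slide 1 and overlap on slide 2, whereas Vwf separates on both.

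Among the 5 angiogenic ligands tested none was called, and the median log2 fold change was -0.01. The largest difference was that of Vegfb, a VEGF family ligand of Flt1 best known in heart and muscle, whose promoter is printed above. It had levels of 2.07, 2.26, 2.09 and 2.17 in nephrectomized rats, against 2.00, 1.89, 1.78 and 1.81 in sham rats. Every nephrectomized rat lay above every sham rat. The level averaged 2.15 ± 0.09 in nephrectomized rats and 1.87 ± 0.10 in sham rats (SD, n = 4 each), a log2 fold change of 0.28 (SE 0.07), or 1.21-fold (95% interval 1.08 to 1.36). The limma adjusted p was 0.0830. It was under the threshold in 2 of 21 alternatives, normexp background correction (0.0298) and array weights (0.0105). Leaving out any 1 rat gave a limma adjusted p from 0.0544 to 0.218, and the highest over all alternatives was 0.726. The log2 fold change ran from 0.14 to 0.35 over the alternatives. A second, dimmer probe of Vegfb did not show the rise, at a log2 fold change of -0.002 (SE 0.16), and was less precise than the bright one.

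Vegfa itself did not differ detectably. Its levels were 2.73, 3.04, 2.31 and 2.79 in nephrectomized rats, against 3.11, 2.78, 2.58 and 2.60 in sham rats. The groups overlapped throughout, with a log2 fold change of -0.05 (SE 0.17) and a fold change of 0.969 whose 95% interval ran from 0.739 to 1.27 (limma adjusted p = 0.924). Its second probe gave -0.09. Angpt1 had levels of 1.54, 2.10, 1.69 and 2.12 in nephrectomized rats, against 2.10, 2.08, 1.97 and 2.05 in sham rats. Nephrectomized rats 1 and 3 were low and the others lay just above the sham range, for a log2 fold change of -0.19 (SE 0.13, limma adjusted p = 0.524). Vegfc had levels of 1.57, 1.59, 1.59 and 1.70 in nephrectomized rats, against 1.53, 1.5, 1.63 and 1.65 in sham rats. The groups overlapped (limma adjusted p = 0.83). Angpt2 had a log2 fold change of -0.01 (limma adjusted p = 0.967).

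Edn1, the precursor of the vessel-constricting peptide endothelin, was well above background on 3 of 4 nephrectomized and 3 of 4 sham arrays and therefore was not tested. Its levels were -3.94, -4.34, -4.45 and -3.93 in nephrectomized rats, against -5.17, -4.73, -4.57 and -4.38 in sham rats, and the groups overlapped.

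**Figure D4:**
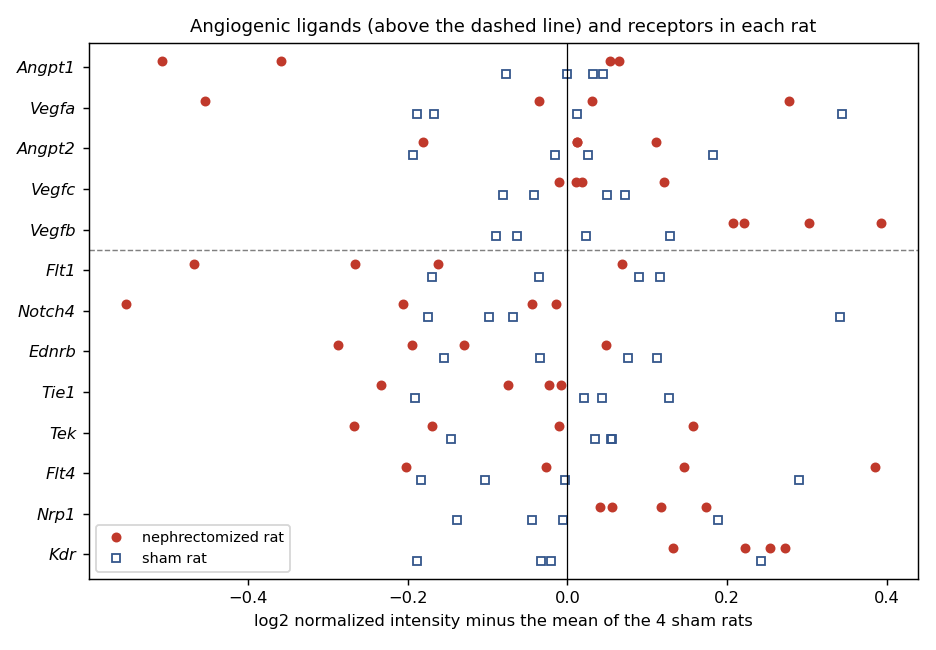
Level of each tested angiogenic ligand and receptor in each rat, as the log2 difference from the gene's mean over the 4 sham rats, with nephrectomized rats as filled circles above the open squares of sham rats. Vegfb is the gene whose nephrectomized values are all above its sham values.

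Of the 9 receptors 8 were tested and none was called by limma (1, Kdr, had an unadjusted p under 0.05), with 3 positive and 5 negative log2 fold changes and a median of -0.08. Kdr had levels of 4.63, 4.6, 4.51 and 4.65 in nephrectomized rats, against 4.35, 4.19, 4.36 and 4.62 in sham rats. Sham rat 4 was within the nephrectomized range and the other 3 sham rats were below it. The mean was 4.6 ± 0.06 in nephrectomized rats and 4.38 ± 0.18 in sham rats (SD, n = 4 each), a log2 fold change of 0.22 (SE 0.09, limma adjusted p = 0.265) that was 0.35 on slide 1 and 0.09 on slide 2.

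Flt1 had levels of -1.88, -1.65, -2.19 and -1.99 in nephrectomized rats, against -1.63, -1.61, -1.76 and -1.89 in sham rats. The groups overlapped, with a log2 fold change of -0.21 (SE 0.12, limma adjusted p = 0.420), and the second probe of the gene gave -0.005. Ednrb, the endothelin receptor through which endothelium clears endothelin and releases nitric oxide, had levels of 1.68, 1.92, 1.58 and 1.74 in nephrectomized rats, against 1.72, 1.98, 1.95 and 1.84 in sham rats. Its log2 fold change was -0.14 (SE 0.09, limma adjusted p = 0.480). Tek had levels of -2.228, -1.901, -2.326 and -2.069 in nephrectomized rats, against -2.004, -2.024, -2.204 and -2.003 in sham rats, and the groups overlapped (-0.07, limma adjusted p = 0.770). Tie1, the partner of Tek, had a log2 fold change of -0.08 and Notch4, a Notch receptor of endothelium, one of -0.20, neither of them called. The second probes of Tek and Tie1 gave 0.03 and 0.02, of the other sign. Nrp1, a VEGF co-receptor, was at 0.10 and was not called, and its dimmer probes gave -0.008 and 0.01. Flt4, well above background on 4 of 4 nephrectomized and 3 of 4 sham arrays, had a log2 fold change of 0.08, with 0.41 on slide 1 and -0.26 on slide 2 (interaction unadjusted p = 0.0138, adjusted p = 1). Nrp2, a further VEGF co-receptor, was not well above background on any array and was not tested. Its signals were -5.52, -5.25, -5.41 and -4.63 in nephrectomized rats, against -5.83, -5.18, -6.72 and -5.46 in sham rats, and the groups overlapped.

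Beyond the 38 members, 4 lists of related genes were read in the same fit, in which 3.59% of all genes were called. Of 15 tested genes of the VEGF, PDGF, FGF and apelin pathways 1 was called, Aplnr, the apelin receptor of sprouting and venous endothelium. Aplnr rose, with levels of -1.91, -1.71, -1.99 and -1.72 in nephrectomized rats, against -2.34, -2.61, -2.30 and -2.13 in sham rats. The groups did not overlap, and the log2 fold change was 0.52 (SE 0.11), or 1.43-fold (limma adjusted p = 0.0467). Of the 15 genes 5 were positive and 10 negative, with a median log2 fold change of -0.01. Leaving out any 1 rat other than sham rat 4 ended the call (limma adjusted p up to 0.146), as did quantile normalization (0.0565), normexp background correction (0.0746), slide as a block (0.0533) and testing without the filter on dim probes (0.168).

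Of 8 tested angiogenesis inhibitors 1 was called, Thbs2, a matrix thrombospondin. Over the 8 genes 4 were positive and 4 negative, with a median log2 fold change of 0.01. Thbs2 rose, with levels of -1.16, -1.27, -1.49 and -1.19 in nephrectomized rats, against -1.68, -1.90, -1.84 and -1.74 in sham rats. The log2 fold change was 0.51 (SE 0.09), or 1.43-fold (limma adjusted p = 0.0186), and the second probe of Thbs2 gave 0.46 (adjusted p = 0.00715). The call was lost without nephrectomized rat 2 (0.0545) or 4 (0.0685) and without sham rat 2 (0.0600) or 3 (0.0677), and likewise with normexp (0.0640) and without the filter (0.0873). Thbs1, the related thrombospondin, was the lowest of the list and is named after its values were seen. It had levels of -3.44, -3.41, -3.83 and -3.28 in nephrectomized rats, against -3.23, -2.95, -3.21 and -3.20 in sham rats. The groups did not overlap, the log2 fold change was -0.34 (SE 0.12), and Thbs1 did not pass the test (limma adjusted p = 0.194). By limma 0 of 12 Notch, ephrin and semaphorin genes were called (2 at an unadjusted p under 0.05) and 0 of 27 other endothelial genes (4 unadjusted). Over all genes 3.59% were called and 17.7% had an unadjusted p under 0.05. In the Notch, ephrin and semaphorin list, 1 of the 2 was well above background on only 3 of 4 sham arrays. It entered the test only through the nephrectomized group, in which it was higher. The median log2 fold changes of these lists were -0.15 for the Notch, ephrin and semaphorin genes and 0.01 for the other endothelial genes.

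Markers of the other cells of the kidney were read beside the members. By limma 0 were called of 7 pericyte and smooth muscle genes, 5 fibroblast genes (1 at an unadjusted p under 0.05), 3 lymphatic endothelial genes, 6 podocyte genes, 7 leukocyte genes, 6 proximal tubule genes and 7 genes of the loop, distal tubule and collecting duct, with no unadjusted p under 0.05 outside the fibroblast list. Their medians lay between -0.11 and 0.03. In the podocyte list Nphs1 was at -3.33 in sham rat 3, against 1.38 to 1.68 in the other sham rats. Its log2 fold change of 1.08 therefore had an SE of 1.03. Of the cell division genes 9 of 9 tested were called higher, with a median log2 fold change of 1.85, on the same arrays on which the 18 endothelial markers had a median of 0.06. Of 2 red blood cell genes 0 were called by limma (0 at an unadjusted p under 0.05), and the rats differed widely: the mean level of the 2 tested (Hbb and Alas2) ran from -0.35 to 0.87 in nephrectomized rats and from -0.75 to 2.50 in sham rats.

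**Figure D5:**
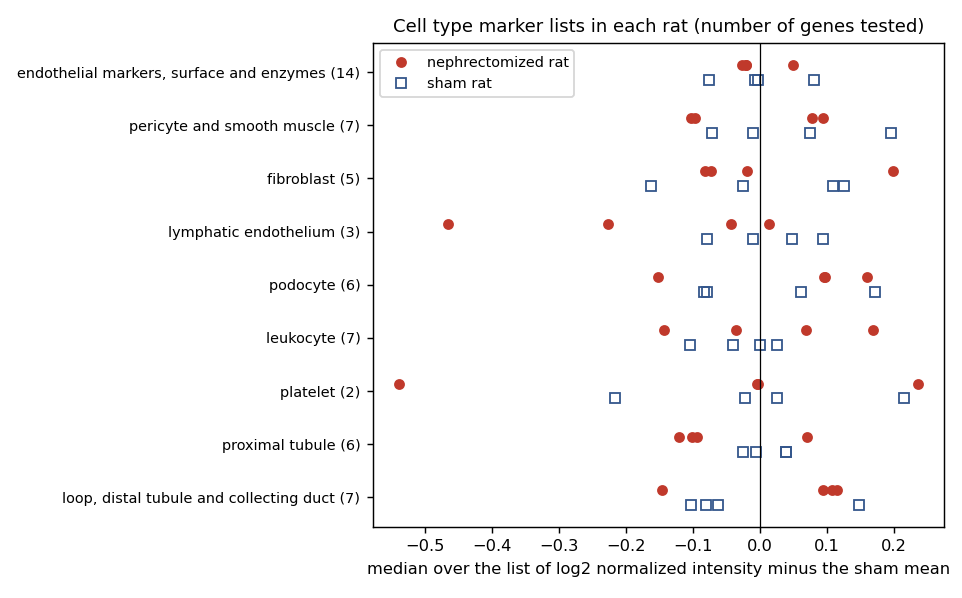
Median over each marker list of the log2 level minus the gene's mean in the 4 sham rats, with nephrectomized rats as filled circles above the open squares of sham rats and the number of genes tested in brackets. The surface endothelial markers lie between -0.03 and 0.05 in nephrectomized rats, within the range of -0.08 to 0.08 in sham rats.

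Within groups, members varied about as much as other genes. The SD among nephrectomized rats ran from 0.04 (Plvap) to 0.52 (Cdh5), with a median of 0.14 for members and 0.14 for all genes. The SD among sham rats ran from 0.05 (Erg) to 0.41 (Sox7), with a median of 0.14 for members and 0.13 for all genes. The low and high values gathered in a pair of rats. Nephrectomized rat 3 had the lowest value of the 8 rats in 13 of the 31 members, among them Pecam1, Vwf, Esam, Erg, Vegfa and Flt1. In 4 members, Cdh5, Emcn, Eng and Thbd, it had the highest value. Of all genes it was the lowest in 17.6% and the highest in 18.8%. Sham rat 1 had the highest value in 10 members, among them Pecam1, Vwf, Esam, Vegfa and Notch4, and was the highest in 16.4% of all genes. It also had the lowest value in 7 members, among them Emcn, Thbd, Sox7 and Sox18, and in 18.2% of all genes. Without sham rat 1 the median of the 18 endothelial markers was 0.01, and 0 members were called by limma.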

How the data were processed

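Total RNA of 8 kidneys (RNeasy Mini Kit) was labelled with the Cy3 dye (Low Input Quick Amp), according to the labels' protocols, and hybridised to Agilent arrays of design 014879 in 1 colour. Feature Extraction 10.5.1.1 made the scanner files, per the file headers. They hold for each spot an intensity that the authors' software had background-subtracted within the array, with no scaling between arrays. A deposited log2 table of 30448 probes correlated at r = 0.99998 with the computation used here. This correlation was pooled over all probes and arrays, once each probe was centred. Spots with an outlier flag were left out, and spots of a probe were averaged. From the log2 of each probe the 75th percentile of its array was subtracted.

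A probe was kept where every array of either group measured it well above background (23982 of 41012 probes), and the brightest probe stood for its gene, leaving 19865 genes. Symbols came from RefSeq accessions (GRCr8): 18713 gene probes had a symbol and 22299 had none, and each accession without one counted as a gene. Limma 3.58.1 in R 4.3.3 gave two-sided p-values, adjusted after Benjamini-Hochberg over all genes, with a threshold of 0.05. The scripts were tested on simulated data.

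Members, gene lists and tests were chosen with earlier results of these data known. All members are named. Per-rat values are given for called members, for the 3 smallest p in each role group, for dim members and for those with a sample far from the rest, and for Pecam1, Cdh5 and Vegfa, added after their values were seen. Other genes are named where called or where a list holds them as cell markers, besides Thbs1, Apln and Pdgfb, chosen after their values were seen. A rule for printing promoters of called members could not be applied, as Vwf had no entry in the table. Replicate numbers did not pair the samples: the deviations of same-numbered rats correlated at 0.103, 0.011, 0.101 and -0.018. Alternatives were other scaling, background correction, filters, probe rules, array weights, blocks, single slides and leaving out each rat.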

Additional observations from a re-analysis of the deposited data

Results flagged for a closer look

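Dixon's test compared the highest or the lowest rat of each group with its nearest neighbour, over 66 groups of 4 rats, and chance marks about 1 group in 20. It marked 3. Emcn was at 1.09 in sham rat 1, with the other sham rats between 1.36 and 1.37. Thbd was at 1.99 in sham rat 1, with the other sham rats between 2.18 and 2.21. Tek was at -2.20 in sham rat 3, with the other sham rats between -2.024 and -2.003. Without sham rat 1 the log2 fold change of Emcn was -0.0032 and that of Thbd 0.0246.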

How the results depend on the processing

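The genes called numbered 714, and 282 without the filter on dim probes, 2520 with array weights, 296 with the replicate block, 0 on slide 1 alone (1632 at an unadjusted p under 0.05), 141 on slide 2 alone and 341 to 720 when 1 rat was left out. The cause was not tested, except that single slides and fits without 1 rat hold fewer samples. The array weights were 0.40 for nephrectomized rat 3, 0.40 for sham rat 1 and 2.48 for nephrectomized rat 4. The replicate block left 0 members called, and the replicate numbers did not pair the samples. Members called were 1, and 0 under quantile normalization, without the filter, with slide as a block, on slide 1 or 2 alone and without any 1 rat (0 to 0). They were 2, Vwf and Vegfb, under normexp and array weights. The median log2 fold change of the endothelial markers (0.0604) was 0.0037 with array weights, -0.0437 on slide 2 and 0.0121 to 0.0769 with 1 rat left out. That of the ligands (-0.0115) was 0.0476 with array weights, 0.0649 on slide 1 and -0.0486 to 0.0494 with 1 rat left out. That of the receptors (-0.0786) was -0.2217 on slide 2 and -0.1187 to -0.048 with 1 rat left out. Signs turned only in genes not called. With array weights these were Cdh5 (-0.0506), Emcn (-0.002), Cldn5 (0.0095), Icam1 (-0.0231), Icam2 (-0.0081), Nos3 (0.0383), Vegfa (0.1411) and Tek (0.0255). On slide 1 they were Cdh5 (-0.2908), Plvap (-0.0132), Angpt2 (0.0696) and Tie1 (0.0442), and on slide 2 Icam2 (-0.0599), Sox7 (-0.1191), Sox17 (-0.0276) and Flt4 (-0.258). Averaging probes turned Ece1 (-0.0885), and normexp turned Vegfc (-0.0176) and Angpt2 (0.0027). Leaving out 1 rat gave ranges across 0 for Cdh5 (-0.1603 to 0.2377), Emcn (-0.0032 to 0.09), Icam1 (-0.0013 to 0.0866), Icam2 (-0.0011 to 0.1031), Nos3 (-0.1189 to 0.0219), Vegfa (-0.1528 to 0.0908), Angpt2 (-0.0758 to 0.0494) and Flt4 (-0.028 to 0.1719). Vwf was called in 7 of 21 alternatives, Aplnr in 7 and Thbs2 in 13, and each kept its sign in all 21. The groups did not overlap for any of these genes, so leaving out a rat or taking 1 slide alone could not turn the sign.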

Other observations

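Aplnr's ligand and a further growth factor of sprouting vessels were looked at after their values were seen. With Aplnr they had the highest log2 fold changes of a list in which 10 of 15 genes were negative and the median was -0.01, so they do not stand for the list. Apln, the ligand of Aplnr, had levels of 1.36, 1.80, 1.90 and 1.91 in nephrectomized rats, against 1.16, 1.23, 1.41 and 1.25 in sham rats, and the log2 fold change was 0.48 (SE 0.13, limma adjusted p = 0.0903). Nephrectomized rat 1 overlapped with sham rat 3. Pdgfb, which draws pericytes to new vessels, was well above background on 4 of 4 nephrectomized and 3 of 4 sham arrays. It therefore entered the test only through the nephrectomized group, in which it was higher. Its levels were -3.53, -3.85, -4.09 and -3.28 in nephrectomized rats, against -4.67, -4.01, -4.37 and -4.26 in sham rats. The log2 fold change of Pdgfb was 0.64 (SE 0.19, limma adjusted p = 0.126). Nephrectomized rat 3 overlapped with sham rat 2. Neither gene passed the test.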
